A study of Mus musculus with 47 samples.

Results

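The 9 transcription factors of the naive pluripotency network examined here, Nanog, Esrrb, Zfp42, Prdm14, Klf4, Klf5, Tfcp2l1, Tbx3 and Sall4, were taken by symbol from the deposited table of allelic read counts, which lists 13947 genes. All 9 were found. All 9 averaged 5 or more counts per cell, a filter that 4149 genes passed. The table holds 47 single induced pluripotent stem cells (iPSCs) of 1 plate, a series that asked what happens to gene dosage when reprogrammed female cells lose an X chromosome. Mouse embryonic fibroblasts of a cross between a Mus mother carrying an X-linked GFP transgene and a Cast father were reprogrammed with a doxycycline-inducible lentivirus for Oct4, Sox2, Klf4 and Myc, together with a second virus for the transactivator M2rtTA. The labels give mouse ESC medium with serum, LIF and ascorbic acid for these iPSCs. The methods describe iPSC controls from picked colonies that were kept without doxycycline or ascorbic acid, and whether this applies to the plate is not stated. The column names mark 23 cells as bi_allelic, 15 as cast and 9 as mus. In the paper iPSCs were grouped by the mean allelic ratio of X-linked gene expression, and loss of an X was judged from expression. The marks are read here as the class with both X chromosomes (X-Mus X-Cast), that left with the Cast X (X-Cast O-Mus) and that left with the Mus X (X-Mus O-Cast). By this cross, the Mus allele of an autosomal gene came from the mother and the Cast allele from the father. The labels name no separate cultures, clones or animals, so the cells count as 1 sample, and every difference between classes below is a description without a p-value.

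Naive pluripotency is the state of the preimplantation epiblast and of mouse embryonic stem cells kept in LIF. Oct4 and Sox2 form its core and are also kept in the primed state after implantation, whereas the factors described here form the surrounding network, bind the enhancers of each other and are partly redundant. LIF acts through Stat3 on Klf4 and Tfcp2l1, Tbx3 lies mainly downstream of the PI3K branch of the same signal, and Nanog and Esrrb share many targets. Nanog, Prdm14 and Zfp42 are also known from X chromosome biology, as Nanog and Prdm14 take part in the repression of Xist and Zfp42 (Rex1) is a substrate of the X-linked ubiquitin ligase Rnf12.

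In the GENCODE M21 annotation (GRCm38) the genes lie as follows: Nanog at chr6:122707489-122714633 (plus strand), Esrrb at chr12:86361117-86521628 (plus strand), Zfp42 at chr8:43295063-43306980 (minus strand), Prdm14 at chr1:13113457-13127163 (minus strand), Klf4 at chr4:55527143-55532466 (minus strand), Klf5 at chr14:99298691-99315036 (plus strand), Tfcp2l1 at chr1:118627945-118685168 (plus strand), Tbx3 at chr5:119670669-119684724 (plus strand) and Sall4 at chr2:168748332-168767943 (minus strand). All are autosomal, so none belongs to the chromosome by which the classes differ, and 2 share chromosome 1. Noncoding genes or pseudogenes overlap Tfcp2l1, Tbx3 and Sall4.

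Promoter sequence in the RefSeq table (GRCm38.p6) was given for 5 of the 9 genes, Nanog, Esrrb, Zfp42, Klf4 and Tfcp2l1, 2 start sites each for Nanog and Esrrb. Prdm14, Klf5, Tbx3 and Sall4 had no entry. The 250 bases before the start site are shown for 3 genes, Nanog and Tfcp2l1, whose levels are compared between classes below, and Zfp42, which had the lowest Mus share of the 9. Capitals mark matches on either strand to TTTGCAT (part of the octamer bound by Oct4), CATTGT (part of a Sox site), AAGGTCA (a half-site of Esrrb), GGGNGTGG (a Klf site) or TTCNNNGAA (a Stat site), and no matches overlapped one another. They are reference sequences, not reads of these cells.

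Nanog, chr6:122707239-122707488, plus strand: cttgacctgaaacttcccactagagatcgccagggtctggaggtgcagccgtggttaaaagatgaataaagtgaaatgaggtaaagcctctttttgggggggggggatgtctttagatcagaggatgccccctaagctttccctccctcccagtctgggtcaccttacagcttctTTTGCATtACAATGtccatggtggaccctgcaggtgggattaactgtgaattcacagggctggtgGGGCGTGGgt

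Tfcp2l1, chr1:118627695-118627944, plus strand: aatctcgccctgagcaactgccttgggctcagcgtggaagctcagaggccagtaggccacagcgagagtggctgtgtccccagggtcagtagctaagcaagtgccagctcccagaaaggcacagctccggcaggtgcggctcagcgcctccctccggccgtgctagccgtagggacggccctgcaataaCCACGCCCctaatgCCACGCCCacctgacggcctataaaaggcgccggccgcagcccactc

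Zfp42, chr8:43307010-43307259, minus strand: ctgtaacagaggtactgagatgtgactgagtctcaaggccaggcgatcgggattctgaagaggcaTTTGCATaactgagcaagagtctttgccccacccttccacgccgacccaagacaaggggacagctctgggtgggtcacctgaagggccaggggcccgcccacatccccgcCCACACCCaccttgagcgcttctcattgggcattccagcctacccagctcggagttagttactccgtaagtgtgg

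The Nanog window shown held an octamer match that began 75 bases before the start site, followed 1 base later by a Sox match on the opposite strand and, next to the start site, by a Klf match. In the window of the second Nanog start site the octamer match began 151 and the Sox match 143 bases before that site. This second window held Klf matches that began 86 and 52 bases before it. The Tfcp2l1 window held 2 Klf matches, and the Zfp42 window an octamer match and a Klf match. The first Esrrb window held 1 Stat match, and the second Esrrb window and the Klf4 window held none of these letter strings. Of 32851 promoter windows of the same length in the table, 4.13% held the octamer string, 10.7% the Sox string, 4.08% the Esrrb string, 15.9% the Klf string and 7.02% the Stat string. A match is a description of the letters and not of binding.

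The counts per cell ranged from 71682 to 216451 (median 167041). Where values are given for all 3 classes the class with both X chromosomes comes first, that with the Cast X next and that with the Mus X last, and a pair of folds over X-Mus X-Cast cells gives the class with the Cast X first. A level below is the sum of the Cast and Mus counts of a gene per 10000 allelic counts of the cell. In the methods given for the other plate libraries of the study, counts were taken at polymorphic positions, and the number of positions per gene is not in the table, so levels were compared between cells and never between genes. Among the markers of pluripotent cells, 7 of 8 were in the table and all 7 had counts in each class, with a summed level of 17.4 to 82.6 per cell. Of fibroblast markers, Col1a2, Postn, Lum and Dcn were at 0 in all cells, and the summed level of 0.754 to 28.3 came nearly whole from Fn1, with 4853 counts. Of primitive endoderm and trophoblast markers, Gata6, Pdgfra, Cdx2, Elf5, Hand1 and Krt7 were at 0. The summed primitive endoderm level of 0 to 10.9 rested on Lama1, with 995 of its counts, and the summed trophoblast level of 0 to 4.99 on Tfap2c, with 686. None of 7 markers of 2-cell-like cells was in the table. Some cells stood apart. The cell in well E04 (X-Mus O-Cast) was the shallowest. The Mus share of chromosome 1 was 27.3 to 35% in 43 cells and 43.9 to 47.8% in 4, in wells B01 and C01 (X-Mus O-Cast), B04 (X-Cast O-Mus) and G04 (X-Mus X-Cast), where chromosome 1 gave 4.28 to 4.77% of the counts, against 5.23% or more in the others. The Mus share over all autosomes was 42.7% in the median cell. The 4 cells were thus nearer to it on chromosome 1 than the 43, which leaned to the Cast allele there. In B04 the Mus share of chromosome 12 was 7.27%, against a median cell of 39.9%. In C01 that of chromosome 8 was 52.2%, against 39.4%.

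Compared with X-Mus X-Cast cells, 7 of the 9 factors had a lower mean level in the X-Cast O-Mus class, where 48.5% of all genes did, and the size of the difference varied between factors. In X-Cast O-Mus cells Nanog, Prdm14, Klf5 and Tbx3 were at least 2-fold lower than in X-Mus X-Cast cells, that is 4 of 9 members, where 6.07% of all 4149 genes were at least 2-fold lower. All 9 averaged at least 5 counts in each of these classes, and of the 3571 genes that did, 3.11% were at least 2-fold lower. In the X-Mus O-Cast class Klf4 and Tbx3 averaged 1.89 and 1.22 counts per cell. They passed the filter through the other classes alone, so their lower level there is given below as values and is not counted. Of the other 7 factors, Nanog, Prdm14, Klf5 and Tfcp2l1 were at least 2-fold lower, where 4.42% of the 3420 genes with at least 5 counts in both classes were, and 10.1% of all 4149 genes. None of the 9 was at least 2-fold higher in either class, where 6.82% of all genes were higher in X-Cast O-Mus and 8.82% in the X-Mus O-Cast class. The median log2 fold of the 9 factors was -0.99 in X-Cast O-Mus cells, where that of all genes tested was 0.01, and that of the 7 factors -1.13 in the X-Mus O-Cast class, where it was 0.06 for genes passing in both classes. Both comparisons use the same X-Mus X-Cast cells. For every factor the values of the classes overlapped. As a difference of mean log2(level + 1), which understates the change of genes with levels near or below 1, the 4 factors lower in X-Cast O-Mus cells had -0.77 (Nanog) to -0.33 (Tbx3). In X-Mus O-Cast cells Tfcp2l1 (-1.59) passed 1 on this scale, whereas Nanog (-0.84), Prdm14 (-0.59) and Klf5 (-0.39) did not.

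**Figure D1:**
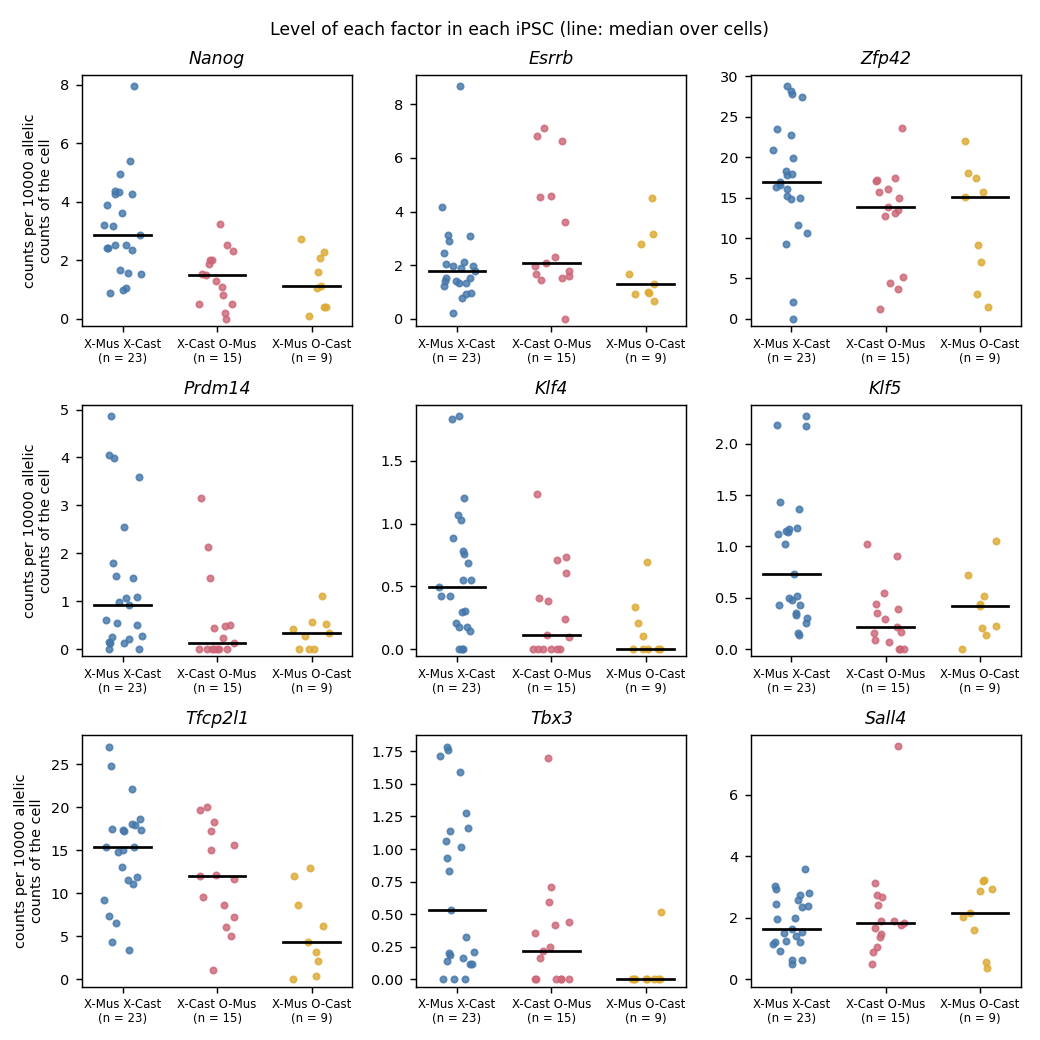
Level of each factor (counts per 10000 allelic counts of the cell, linear axes that differ between panels) in each cell, by deposited class (23, 15 and 9 cells), with a line at the class median. Points of the classes overlap in every panel, and for Tbx3 all points but 1 of the X-Mus O-Cast class lie at 0.

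Nanog, the homeodomain factor that sustains self-renewal when LIF is limiting, had levels from 0.898 to 7.96 (median 2.87) in X-Mus X-Cast cells, from 0 to 3.23 (median 1.49) in the X-Cast O-Mus class and from 0.111 to 2.73 (median 1.12) in the X-Mus O-Cast class. The classes overlapped, with 5 cells of the class with the Cast X and 3 of that with the Mus X below the lowest X-Mus X-Cast cell, whereas 9 X-Mus X-Cast cells lay above the highest X-Cast O-Mus cell and 12 above the highest X-Mus O-Cast cell. The log2 fold of the means was -1.14 for the cells with the Cast X and -1.26 for those with the Mus X, and that of the medians -0.94, short of 2-fold, and -1.36. The summed counts gave 1.89 to 2.39 times lower values in the first and 2.07 to 2.83 times lower in the second (95% intervals that cover counting error only, as do all intervals below). On the Cast allele the log2 fold was -1.42 and -1.62, and on the Mus allele -0.92 and -0.99.

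Prdm14, a PR-domain protein that acts with Polycomb and keeps DNA methylation low, was found in 21 of 23 X-Mus X-Cast cells, 8 of 15 X-Cast O-Mus cells and 6 of 9 X-Mus O-Cast cells. Its level ranged from 0 to 4.86 (median 0.926), from 0 to 3.15 (median 0.121) and from 0 to 1.11 (median 0.333). The lower ends were shared, and 4 and 8 X-Mus X-Cast cells exceeded every X-Cast O-Mus and every X-Mus O-Cast cell. The log2 fold was -1.23 and -1.90.

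Klf5, a zinc-finger factor that overlaps in function with Klf4, ranged from 0.140 to 2.27 (median 0.731) in X-Mus X-Cast cells, from 0 to 1.03 (median 0.219) in X-Cast O-Mus cells and from 0 to 1.05 (median 0.415) in X-Mus O-Cast cells. It was found in every X-Mus X-Cast cell, and 10 of those cells lay above all cells of each single-X class. The log2 fold was -1.55 for the X-Cast O-Mus class and -1.13 for the X-Mus O-Cast class. Without the shallow cell E04 the second value was -0.96, and by medians -0.81, both short of 2-fold.

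Klf4, a target of LIF and Stat3, was found in 20 of 23, 9 of 15 and 4 of 9 cells, with levels from 0 to 1.86 (median 0.496), 0 to 1.24 (median 0.110) and 0 to 0.698 (median 0) in the order of classes given above. The X-Mus O-Cast class held 17 counts in all. The log2 fold was -0.99 in X-Cast O-Mus, just short of 2-fold (-2.17 by medians), and -2.01 in X-Mus O-Cast cells. Without B04, the highest X-Cast O-Mus cell, the first value was -1.35, and without E04, the highest X-Mus O-Cast cell, the second was -2.90. On the Cast allele the log2 fold of Klf4 was -0.85 and -1.485, and on the Mus allele -1.33 and -5.03, the last with 1 Mus count in X-Mus O-Cast cells. Klf4 is also carried by the lentivirus, and counts from the endogenous gene and from the virus were not told apart here. Of the other viral genes Oct4 (Pou5f1 in the table) had a log2 fold of -0.17 and 0.35 and Sox2 of -0.12 and -0.54, and Myc was not in the table.

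Tbx3, a T-box factor, was found in 20 of 23 X-Mus X-Cast cells and 9 of 15 X-Cast O-Mus cells. All 11 counts in X-Mus O-Cast cells came from 1 cell, B05, without which no count was left in that class. The level ranged from 0 to 1.79 (median 0.535), from 0 to 1.70 (median 0.219) and from 0 to 0.518 (median 0). The log2 fold was -1.13 in X-Cast O-Mus cells. In X-Mus O-Cast cells it was -3.62, and the summed counts were 5.24 to 19.3 times lower. An antisense gene, Tbx3os1, overlaps Tbx3 in the GENCODE M21 annotation, and counting by strand is not given in the sources used here.

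Tfcp2l1, which is induced by LIF and Stat3 and can sustain self-renewal on its own when overexpressed, differed between the single-X classes in size. Its level ranged from 3.41 to 27.1 (median 15.4) in X-Mus X-Cast cells, from 1.04 to 20.1 (median 12.1) in X-Cast O-Mus cells and from 0 to 13 (median 4.33) in X-Mus O-Cast cells. All 9 X-Mus O-Cast cells lay below the X-Mus X-Cast median and 4 below the lowest X-Mus X-Cast cell. The log2 fold was -0.29 and -1.40. The gene lies on chromosome 1, and B01 and C01, both X-Mus O-Cast, were among the cells with the higher chromosome 1 Mus share. Without the 4 cells of that kind the log2 folds were -0.19 and -1.09.

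Zfp42, a zinc-finger protein used as a reporter of the naive state, and Esrrb, an orphan nuclear receptor downstream of Nanog, did not pass 2-fold. Zfp42 ranged from 0 to 28.8 (median 16.9), 1.23 to 23.7 (median 13.8) and 1.505 to 22 (median 15.1), with log2 folds of -0.45 and -0.51. Esrrb ranged from 0.207 to 8.68 (median 1.77), 0 to 7.10 (median 2.09) and 0.665 to 4.49 (median 1.28). Its log2 folds were 0.58 and -0.17, so that the direction differed between the single-X classes, and without the 4 chromosome 1 cells the second was 0.04. Sall4, which maintains Oct4 expression and is not restricted to the naive state, ranged from 0.490 to 3.59 (median 1.63), 0.509 to 7.58 (median 1.84) and 0.363 to 3.23 (median 2.17), with log2 folds of 0.25 and 0.20. Sall4 was the factor found in all 47 cells. Nanog, Esrrb, Zfp42 and Tfcp2l1 were each found in 46, and the cell without counts was a different one each time, H05, E06, D04 and B01.

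**Figure D2:**
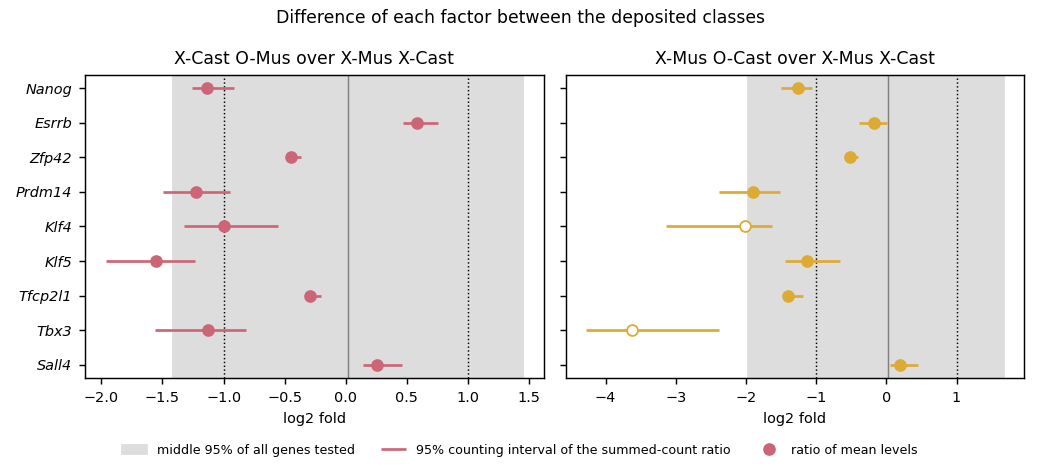
Log2 ratio of mean levels (points) in X-Cast O-Mus cells (left) and X-Mus O-Cast cells (right) over X-Mus X-Cast cells, with bars for the 95% counting interval of the summed-count ratio, dotted lines at 2-fold, a grey line at the median of all 4149 genes and a grey band over their middle 95%. Open points mark Klf4 and Tbx3 on the right, which passed the filter through the other classes alone and are not read against the band. Klf5 on the left lies outside the band, and Esrrb and Sall4 lie closest to or above 0.

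Genes that work beside these factors had medians near or above 0. Of 18 other pluripotency genes tested, 1 was at least 2-fold lower in each single-X class, Tcl1, an activator of Akt that Esrrb and Oct4 regulate, with log2 folds of -1.34 and -1.82. Nr5a2, a nuclear receptor that can replace Oct4 in reprogramming, and Lin28a, an RNA-binding protein that blocks let-7, were at least 2-fold higher in X-Cast O-Mus cells by their means, with 1.07 and 1.24. The median level of Nr5a2 was not higher there (0.240 in X-Mus X-Cast and 0.221 in X-Cast O-Mus cells), and that of Lin28a was 0.229 and 0.770. No other gene of the list passed 2-fold in X-Mus O-Cast cells. The median log2 fold of the list was -0.02 and 0.31. Of 4 genes of LIF signalling tested (Lifr, Il6st, Stat3 and Pim1) none passed 2-fold either way, and the medians were 0.07 and 0.30. Of 12 primed state genes 9 were in the table, and only Dnmt3b and Lef1 passed the filter. Lef1, a partner of beta-catenin, was at least 2-fold higher in both classes (1.501 and 1.39), and Dnmt3b had 0.14 and 0.91. Below the filter, Otx2 had counts in 22 cells, Foxd3 in 6, Cdh2 in 4, T in 3 and Dnmt3a in 2. Fgf5 and Sall2 were at 0 in all cells. Of the markers of other cell types, Fn1 had log2 folds of 1.16 and 0.14, Lama1 of 1.63 and 2.15, and Tfap2c of -0.76 and 0.01. The part of these genes in the values of the 9 factors was not tested.

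The 2 alleles of the factors were used unevenly in different directions. Over all autosomal genes tested the median Mus share of the counts was 45.9%. Zfp42 had 11115 Cast and 540 Mus counts, a Mus share of 4.63% (exact Clopper-Pearson 95% interval 4.26 to 5.03%), where chromosome 8 had 39.4% in the median cell. Prdm14 had 637 Cast and 54 Mus counts, a share of 7.82% (5.92 to 10.1%), where chromosome 1 had 31%. These were 2 of 9 members with a Mus share of at most 10%, and 6% of 4033 autosomal genes were that low. The share of Zfp42 was low in every class, 3.94%, 6.22% and 4.27%. Prdm14 had 6.63%, 4.90% and 28%, the last from 14 Mus counts in 2 cells, D01 and E01. The nearest neighbour of Zfp42 with at least 100 counts, Triml2, had a Mus share of 7.89% and the next, Triml1, 24.6%. On the other side Fat1 had 44.9%. The neighbours of Prdm14 had 19.9 to 31.2%.

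Klf4 (30.2%, interval 25.2 to 35.6%), Tbx3 (32.2%, 27.5 to 37.3%) and Tfcp2l1 (34.2%, 33.2 to 35.2%) leaned to the Cast allele. Chromosomes 4, 5 and 1 had 39.5, 44.6 and 31% in the median cell, so that Tfcp2l1 was above its chromosome and the other two below theirs. Sall4 (47.1%, 44.6 to 49.6%), Esrrb (51.3%, 49.0 to 53.6%) and Nanog (54.9%, 52.6 to 57.3%) were closer to balance. Chromosomes 2, 12 and 6 had 45.4, 39.9 and 45.5% in the median cell, so that Esrrb and Nanog lay above theirs and the interval of Sall4 held that of its chromosome. Klf5 leaned most to the Mus allele, with 61.5% (57.1 to 65.8%) on chromosome 14, which had 33.1%. This lean was found in X-Mus X-Cast cells, 67.9% (62.7 to 72.8%), whereas the share was 43.6% (32.4 to 55.3%) in X-Cast O-Mus cells and 48.5% (36 to 61.1%) in the X-Mus O-Cast class. Between the classes the Mus allele of Klf5 had a log2 fold of -2.22 in X-Cast O-Mus and -1.68 in X-Mus O-Cast cells, and the Cast allele -0.72 and -0.40. The number of polymorphic positions behind a share is not known, and a mapping preference for one strain was not tested for these genes.

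In the 4 cells with the higher chromosome 1 share, Tfcp2l1 had 0 counts in B01, a level of 1.04 in B04, of 2.08 in C01 and of 18.1 in G04. G04 lay above the median of the other 43 cells, 12.2, and the other 3 were far below it. The pooled Mus share of Tfcp2l1 was 45.2% (39.98 to 50.5%) in these cells and 33.8% (32.8 to 34.8%) in the other 43. The first share is mainly that of 1 cell, as G04 held 168 of the 199 Cast and 134 of the 164 Mus counts. Prdm14, on the same chromosome, had no Mus count there and 17 Cast counts, 15 of them in B01 and 2 in G04, too few cells for a share. In the other 43 its Mus share was 8.01%. In B04, the cell with few Mus counts on chromosome 12, Esrrb had 40 Cast counts and no Mus count.

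**Figure D3:**
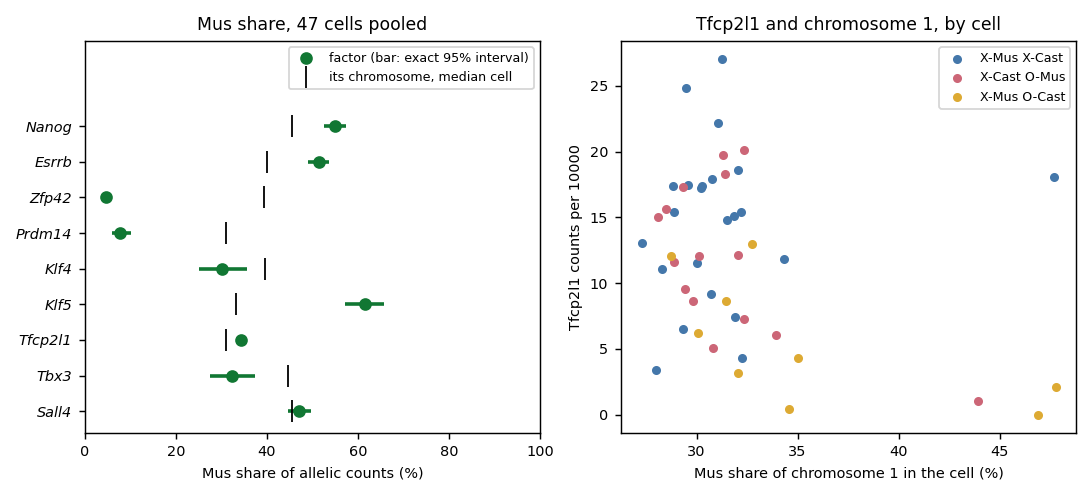
Left, Mus share of the pooled counts of each factor in 47 cells (green, bar for the exact 95% interval) beside that of its chromosome in the median cell (black tick). Zfp42 and Prdm14 lie far below their chromosomes and Klf5 far above. Right, level of Tfcp2l1 in each cell (counts per 10000) against the Mus share of chromosome 1 in that cell, colored by class, with 4 cells to the right of the gap, 3 of them at 2.08 or below.

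Seen cell by cell, the factors ranged from counts of both alleles in nearly all cells to a single allele in most. Tfcp2l1 had both alleles in all 46 cells with counts. Zfp42, in spite of its low Mus share, had both in 44 cells and the Cast allele alone in 2. Nanog had both in 41, Cast alone in 3 and Mus alone in 2, Esrrb both in 42 and Cast alone in 4, and Sall4 both in 43 and each allele alone in 2. Klf5 had both in 30, Cast alone in 6 and Mus alone in 7. Klf4 had both in 18, Cast alone in 12, Mus alone in 3 and neither in 14, and Tbx3 both in 17, Cast alone in 9, Mus alone in 4 and neither in 17.

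Prdm14 had both alleles in 7 cells, Cast alone in 26, Mus alone in 2 and neither in 12. It was the 1 member of 9 with both alleles in under 50% of its cells with counts, and 39.4% of autosomal genes were below that limit. With an allele counted as on from 3 counts, Prdm14, Klf4 and Tbx3 were below it, 3 of 9 members, and 58.1% of autosomal genes were. The share of cells with both alleles depends on the level, with a median of 38.5% of cells for genes of 5 to 10 counts per cell, 57.5% for 10 to 20, 80% for 20 to 50 and 97.9% above 50. Prdm14, with 14.7 counts per cell, was at 20% of its cells with counts. Among the 20 cells with at least 10 counts of Prdm14, 5 had both alleles, whereas for Klf4 and Klf5 all 12 and all 18 such cells did. In the Mus-only cell D01 of X-Mus O-Cast, Prdm14 had 10 Mus counts and no Cast count, and in B01 15 Cast counts and no Mus count. Sall4 had 30 Mus counts and no Cast count in the X-Cast O-Mus cell E06, where Esrrb had no count.

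**Figure D4:**
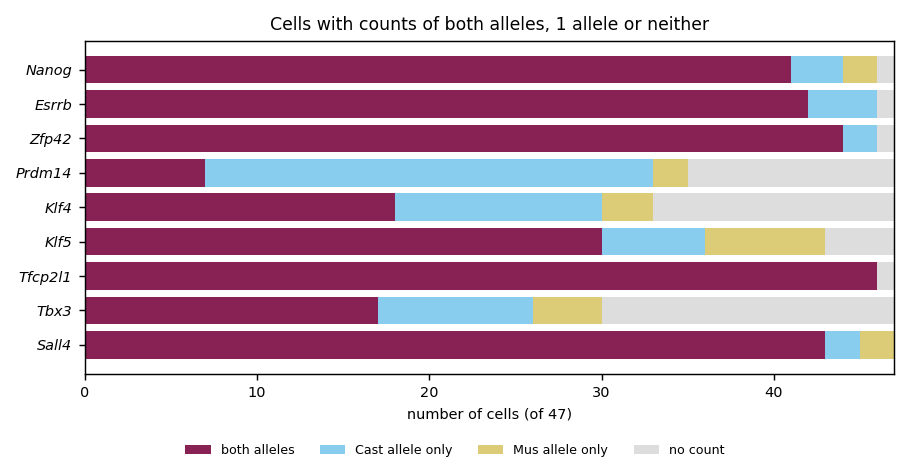
Number of the 47 cells with counts of both alleles, the Cast allele alone, the Mus allele alone or no count for each factor. The bar of Tfcp2l1 is nearly whole with both alleles (46 cells), and that of Prdm14 is mostly Cast alone (26 cells).

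The 2 alleles of a factor varied together across cells to different degrees. The Spearman correlation between the Cast and the Mus level over the 47 cells was 0.62 for Tfcp2l1, 0.57 for Tbx3, 0.53 for Nanog, 0.48 for Klf4, and 0.41 for Klf5 and for Sall4. It was 0.16 for Prdm14, 0.15 for Zfp42 and -0.01 for Esrrb. Thus 6 of 9 factors reached 0.4, and 15.8% of 3991 autosomal genes did (median 0.21). The Pearson correlation of log2(level + 1) was 0.69 for Tfcp2l1, 0.55 for Nanog, 0.54 for Tbx3, 0.46 for Klf5, 0.43 for Klf4, 0.37 for Sall4 and 0.07 for Esrrb. Without the 2 cells farthest from the median, Tfcp2l1 (0.68), Tbx3 (0.63), Klf5 (0.50) and Nanog (0.47) stayed above 0.4, whereas Klf4 (0.22) and Sall4 (0.29) were below it. In the 23 X-Mus X-Cast cells alone the Spearman correlation was 0.77 for Sall4, 0.64 for Nanog, 0.61 for Klf5, 0.59 for Tfcp2l1 and 0.47 for Tbx3, and it was 0.399 for Klf4 and -0.16 for Esrrb. The cells of these correlations share 1 library preparation, and both alleles are divided by the same total. The correlation of a factor's level with the total of the cell was between -0.07 and 0.24.

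Between factors the correlations of the levels were mostly weak. The median of the 36 pairs was 0.15, with 25 above 0, where the median of all pairs of genes was 0.01. Of the 36 pairs, 2 had a Spearman correlation of at least 0.5 over the 47 cells, Tfcp2l1 with Tbx3 (0.59) and Klf5 with Tbx3 (0.51), and of all 8605026 pairs of genes tested 0.0509% did. The Pearson correlations of log2(level + 1) were 0.47 and 0.50, and 0.46 and 0.41 without the 2 cells farthest from the median. Nanog and Prdm14 followed with 0.47 and Zfp42 and Klf5 with 0.45. The lowest pair was Esrrb with Klf4 (-0.26), and the highest value of Esrrb was 0.17, with Tfcp2l1.

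Since several factors differ between classes, the pairs were also taken within the X-Mus X-Cast cells. There 3 of 36 pairs reached 0.5, where 0.948% of all pairs of genes did, Klf5 with Tbx3 (0.59), Nanog with Prdm14 (0.57) and Tfcp2l1 with Tbx3 (0.55), and the median was 0.04, with 21 pairs above 0 and a median of all pairs of genes of 0.0060. With ranks centred within each class, no pair reached 0.5 and the highest, Tfcp2l1 with Tbx3, was 0.45. The share of all pairs of genes that reach 0.5 was not taken for centred ranks. Over all 47 cells, with the class difference included, the correlation between Tfcp2l1 and Tbx3 was 0.48 on the Cast allele taken alone and 0.50 on the Mus allele. That between Nanog and Prdm14, also over all cells, was 0.45 on Cast and 0.16 on Mus, where Prdm14 had few counts.

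**Figure D5:**
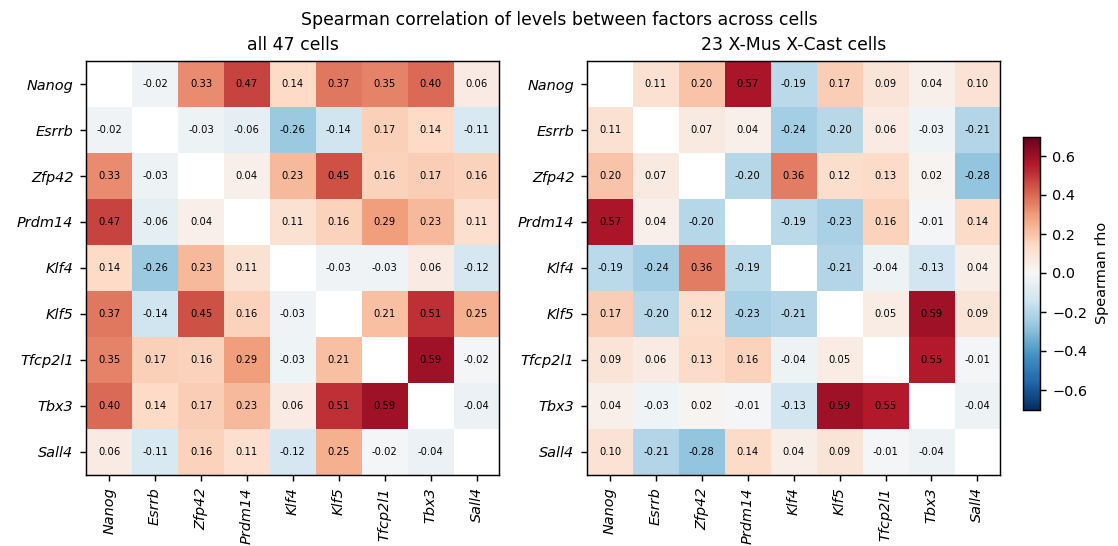
Spearman correlation of the levels of each pair of factors over all 47 cells (left) and over the 23 X-Mus X-Cast cells (right), red above and blue below 0. Tbx3 with Tfcp2l1 and with Klf5 stand at 0.51 to 0.59 in both panels, and the row of Esrrb runs from -0.26 (with Klf4, the lowest pair) to 0.17 in the left panel.

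Among 3841 genes that passed the filter and had counts in at least 24 cells, the gene most like Nanog over the 47 cells was Calcoco2, an autophagy receptor (Spearman 0.67), followed by the X-linked genes Xlr3a (0.61) and Hprt (0.60). An X-linked gene, Pbdc1, was also among the 3 most like Klf5 (0.60), after Rnf181 (0.67) and before Cdyl2 (0.56). The 3 most like Tbx3 were Chmp4c (0.63), Tfcp2l1 (0.59) and Coil (0.56), and those most like Tfcp2l1 were Tbx3 (0.59), Aff1 (0.56) and Coil (0.52). Prdm14 had Tcea1 (0.51), Tor1aip2 (0.51) and Sod1 (0.49), the first 2 on chromosome 1 as Prdm14 is. For Zfp42 they were Cbx5 (0.59), Cdk1 (0.49) and Uspl1 (0.48), for Klf4 Pgam5 (0.50), Rpe (0.49) and Isca2 (0.46), for Sall4 Sltm (0.53), Sco1 (0.48) and Tead1 (0.47), and for Esrrb Abcc1 (0.49), Sdhc (0.47) and EU599041 (0.46). In X-Mus X-Cast cells alone, 21 of these 27 correlations were lower, and they ranged from 0.19 (Sall4 with Tead1) to 0.77 (Tfcp2l1 with Coil). Those of Nanog were 0.46, 0.40 and 0.56 and those of Klf5 0.33, 0.56 and 0.44, in the order of genes above. The genes were picked as the highest of many over all 47 cells, so their values are a description of these cells.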

How the data were processed

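Single iPSCs of 1 plate were sorted into a GpC methylase mix, and mRNA was pulled down with oligo-dT beads (G&T-seq), amplified and sequenced from Nextera XT libraries in single-end mode, without molecular identifiers. The authors deposited raw allelic read counts per gene, 1 column per allele and cell. The submitters' processing notes name STAR 2.5.3a, SAMtools and the build mm10. For the Smart-seq2 libraries of the study the methods describe an N-masked genome, assignment of reads to strains at SNPs and counts summed over the SNPs of genes with at least 4 of them. This is not stated for this plate. A total of 1 count for a gene in a cell was rare (0.309% of values above 0, against 12.4% for 2), so a read may count more than once, and intervals, which cover counting error only, are then too narrow.

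Levels are counts per 10000 of the cell. Folds are ratios of mean levels over cells between deposited classes, and a fold of 2 either way was the rule of size. For a class without a count, 3 counts summed over its cells were used. No p-value was computed between classes, since cells are not replicates. Dixon's ratio was used to mark single cells that stand apart. Genes were placed with GENCODE M21 (13945 of 13947). Python 3.11.15, numpy 2.4.6, pandas 2.3.3 and scipy 1.17.1 were used, and the steps were checked on simulated counts. The genes described, the lists and the tests were chosen with earlier results of these data known. All 9 factors, every list gene past 2-fold and the 3 genes most like each factor were named by rule. The median-of-ratios size factors used 718 genes.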

Additional observations from a re-analysis of the deposited data

Results flagged for a closer look

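In the 9 X-Mus O-Cast cells, the single highest or lowest value was set against the others by Dixon's ratio for 14 series of levels and Mus shares of the factors, and 2 passed. The 95% limit was 0.493 for series of all 9 cells, as both of these are. Series of Mus shares held only cells with at least 10 counts of the gene, and the limit was higher where fewer cells were left. Tbx3 had a level of 0.518 in well B05 and 0 in the other 8 cells, where any level in a single cell gives a ratio of 1. Klf4 had a level of 0.698 in well E04, the shallowest cell, against 0.333 in the next, a ratio of 0.522. The limit is passed by chance in about 1 in 20 series, a rate that does not hold for series with many cells at 0, as both of these are, with 8 and 5 such cells. The ratio only marks the cells as standing apart.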

How the results depend on the processing

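The 8 folds of single factors that passed 2-fold with at least 5 counts per cell in both classes kept their direction in 72 of 72 recomputations, and the 8 within 2-fold in 71 of 72, the exception being Esrrb in X-Mus O-Cast cells without the 4 chromosome 1 cells (0.04). Recomputations reuse the same cells, and some repeat the main value. Leaving out E04 cannot change an X-Cast O-Mus fold, and leaving out B04 cannot change an X-Mus O-Cast fold. Which factors passed 2-fold varied more. By medians Nanog (-0.94) was no longer 2-fold lower in X-Cast O-Mus cells and Klf4 (-2.17) was, and Klf4 was also counted there without chromosome 1 and the X chromosome in the total, without the highest cells and, chosen after seeing the data, without B04 or without the 4 chromosome 1 cells. In X-Mus O-Cast cells Klf5 lost its call by medians (-0.81) and without E04 (-0.96), the latter chosen after seeing the data, and Klf4 and Tbx3, with few counts and medians of 0 there, are left out of these tallies. The difference of mean log2(level + 1) left 1 of the 8 past 1, Tfcp2l1 (-1.59), and the other 7 between -0.84 and -0.33. Counts over all genes moved more, by the make-up of the set tested where the filter changed. Genes at least 2-fold lower were 252 in X-Cast O-Mus and 419 in X-Mus O-Cast cells, and 395 and 746 without the highest cell of each class (the cause was not tested). With no filter beyond 1 read in each class 1399 and 1421 were lower and 1636 and 1809 higher, and with a mean of at least 20 counts 37 and 63 lower and 37 and 51 higher, against 283 and 366 higher in the main count. With at least 5 counts in each class compared, chosen after seeing the data, 111 and 151 were lower and 139 and 200 higher, of 3571 and 3420 genes. Where the filter changed, these are counts from sets of different sizes and not rates. With at least 3 counts for an allele to be on, 3 factors (Prdm14, Klf4 and Tbx3) had both alleles in under 50% of cells with reads, instead of 1, where the share of autosomal genes rose from 39.4 to 58.1%. Member pairs at 0.5 or more were 2, and 1 with Pearson correlations of log2(level + 1) and 0 with ranks centred within each class. For the Pearson correlations and the centred ranks no share over all pairs of genes was taken. Without the 2 cells farthest from the median total the number stayed at 2, but the pairs changed. Klf5 with Tbx3 (0.48) was then below 0.5 and Nanog with Prdm14 (0.52) above it. Cells with reads changed by less than 1.5 times with at least 3 counts or thinned to 71682 counts. Folds of Klf4, Klf5, Prdm14 and Tbx3 rest on few counts per cell. No paired analysis was possible because the cells form 1 group and carry no shared replicate numbers.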
